A study of Eleusine coracana with 4 samples.

Results

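Leaf RNA of the finger millet (Eleusine coracana) genotype CO12 was compared between 1 library from salt-stressed plants and 1 library from well-watered control plants, which are 2 of the 4 libraries of the series. The libraries were picked by their sample labels, and the comparison was chosen with earlier results of these data known. The salt group was CO12 treated with 300 mM NaCl, begun on day 20 when seedlings had reached the 4-leaf stage, and the control group was CO12 kept without salt. The remaining libraries are the same pair from a second genotype, Trichy 1, and are used here only as a side-by-side reading. RNA came from the uppermost fully expanded young leaves, and the labels do not say how many plants a library holds. With 1 library per group no difference has a replicate check, no p-value is given, and every interval covers counting error only. In bulk leaf RNA, fewer cells of a type and less RNA per cell cannot be told apart.

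Finger millet is a C4 grass, one in which PEP carboxylase in mesophyll cells fixes carbon first and a decarboxylase in bundle sheath cells hands it to Rubisco. Salt confronts a leaf with osmotic stress and with sodium that must be kept out or stored in vacuoles. Grasses are known to answer with abscisic acid signalling, compatible solutes such as glycine betaine, antioxidant enzymes, chaperones and reduced growth and photosynthesis.

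Reads were counted on 55986 features that mostly carry rice locus identifiers of the LOC_Os form. The files list these identifiers alone, and no annotation table was used. Names and roles below are those generally known for the rice locus of that identifier, given only where they were held to be certain, and they are roles known from rice and other plants rather than measured in finger millet. Identifiers without such a name are given as identifiers. The chromosome of a rice locus is the pair of digits after Os in its identifier and need not be its chromosome in finger millet.

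The salt library held 1831353 total gene reads and the control library 6272817, so the control library was 3.43-fold deeper. Reads were found on 11675 features in the salt library and on 21288 in the control library, and 93.1% and 89.6% of reads were unique. The 20 most abundant features took 95.9% of reads in the salt library and 96.1% in the control library, which left 75409 and 244857 reads for everything else. LOC_Os09g01000 was the most abundant feature of the salt library, with 34.4% of its reads against 21.3% in the control library. LOC_Os03g24640 took 3.43% against 7.81%. LOC_Os10g21190 took 13.9% against 19.6%, LOC_Os09g00999 took 7.57% against 4.75%, LOC_Os01g57968 took 26.3% against 28.0%, and LOC_Os04g16722 took 5.50% against 5.97%. What these features encode is not stated. Values below are total gene reads scaled to 1e+06 reads per library (RPM), so a shift in these features moves every other RPM.

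The tissue label was set against marker loci. All 13 listed light-harvesting genes had at least 20 reads in a CO12 library, and the small subunit gene RBCS2 had 52 reads under salt and 281 in control. The 5 seed storage loci had 0 reads in both libraries. The root list (RCc3, Lsi1, Lsi2, HAK1, IRT1) summed to 11 reads under salt and 19 in control, a ratio of 1.98 (95% interval 0.853 to 4.38), all from HAK1 and IRT1 apart from 1 control read of Lsi1. RCc3 and Lsi2 were at 0 in both libraries. The shoot meristem and division markers OSH1 and PCNA had 0 reads under salt and 4 in control. The part of other tissues in the results below was not tested.

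Of all features, 1025 had at least 20 reads in either CO12 library, 450 of them in the salt library and 1009 in the control library. Of these, 111 (10.8%) reached 2-fold on the higher side under salt and 196 (19.1%) reached it on the lower side, by the ratio of RPM with a small prior count added. The median log2 ratio was -0.15, and 578 features (56.4%) lay below 0. The counting interval lay wholly beyond 2-fold for 48 features on the higher side (4.68%) and 21 on the lower side (2.05%). It excluded equality, in either case without regard to size, for 196 higher (19.1%) and 223 lower features (21.8%).

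Counts on the 2 sides differed. Features called lower had a median of 3 reads in the salt library and 37 in the control library, and 65 of the 196 had an interval that included equality. Features called higher had medians of 35 and 38 reads, and 1 of the 111 had such an interval. A read floor lets a feature in through the deeper library more easily, and 575 features reached 20 reads in control only against 16 in salt only. As the control library was 3.43-fold deeper, a feature let in by salt alone was bound to be past 2-fold on the higher side. Its interval was likewise bound to lie above equality. That holds for ratios scaled to library totals. Of the 111 higher features, 95 had at least 20 reads in control. With a floor set in RPM, the same for both libraries, 512 features remained, and 96 were higher against 62 lower. With a floor of 100 reads, 23 were higher and 47 lower, and with a prior of 2.5 counts, 103 and 169. The split also moved with the scaling and the reads used. Unique reads gave 63 higher and 190 lower, TMM factors over all features 31 and 527, median-of-ratios factors from features at the read floor 143 and 155, and TMM factors from the same features 141 and 157. These scalings shift all log2 ratios by -0.90, 0.15 and 0.14 in that order. The first of them rests on 8696 features with a median of 2 reads in the salt library and 3 in the control library. Whether more features were higher or lower therefore depends on these choices.

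**Figure D1:**
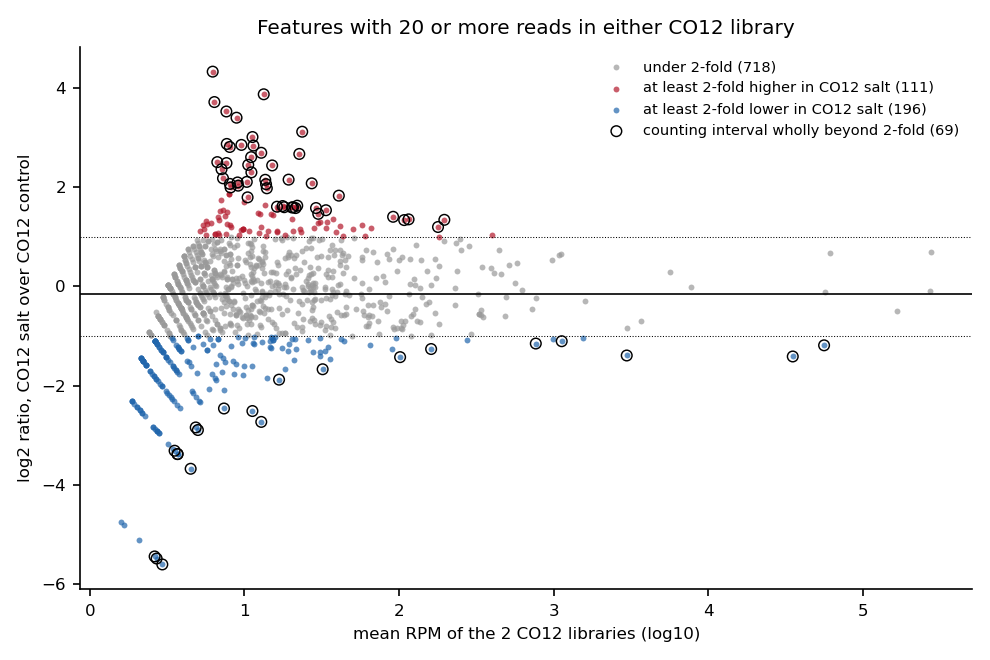
Each point is 1 of 1025 features, with the mean RPM of both CO12 libraries on a log10 axis and the log2 ratio of salt over control on the vertical axis. Red points (111) are at least 2-fold higher and blue points (196) at least 2-fold lower, and rings mark counting intervals wholly beyond 2-fold (48 and 21).

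**Figure D2:**
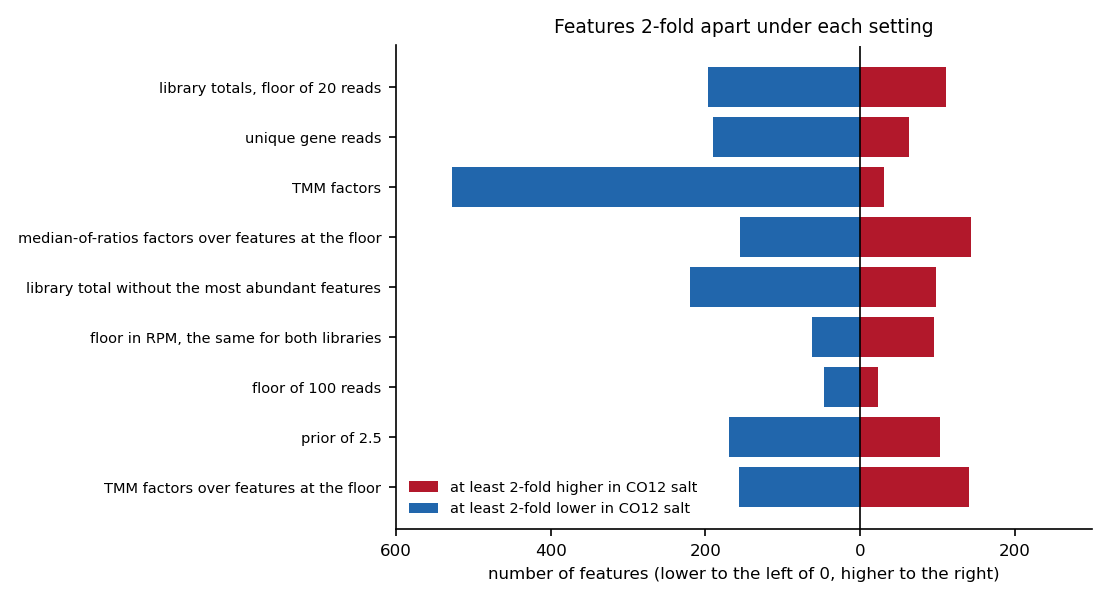
Bars give the number of features at least 2-fold higher (right of 0) and lower (left of 0) in CO12 salt for each scaling, read type and floor, leaving out the setting with no floor. Library totals give 111 and 196, a floor in RPM 96 and 62, and TMM factors over all features 31 and 527.

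Across 31 gene lists of 379 rice loci, 376 were in the table and 151 reached 20 reads in a CO12 library. Of these 151, 25 (16.6%) were at least 2-fold higher, against 10.8% of all features, and 28 (18.5%) lower, close to the 19.1% of all features. Members with an interval wholly beyond 2-fold were 13 on the higher side (8.61%, against 4.68% of all features) and 1 on the lower side (0.662%, against 2.05%). The lists were chosen with earlier results of these data known, so these shares do not test the listed genes against the rest. Some of the listed higher loci also reached the floor in the salt library alone. Of the listed loci 2-fold apart, 24 higher and 20 lower ones had an interval that excluded equality. TMM factors over all features took 14 of the 24 below 2-fold. Median-of-ratios factors took 8 of the 20 within 2-fold, and TMM factors from features at the floor took 7.

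Photosynthesis genes were lower under salt as a group. Over Rubisco, light harvesting, the photosystems, the Calvin cycle, C4 enzymes and chlorophyll synthesis, 79 loci were in the table and 67 reached the floor. Of these 67, 64 had a log2 ratio below 0, against 56.4% of all features. None was 2-fold higher and 18 (26.9%) were 2-fold lower, against 19.1% of all features lower. In 48 (71.6%) the interval excluded equality on the lower side, against 21.8% of all features. Of the 18, 7 were in the C4 list. The count of 18 became 62 with TMM factors over all features, a scaling that put 527 of the 1025 features 2-fold lower. It became 12 with either set of factors from features at the floor. Those factors placed 155 (median-of-ratios) and 157 (TMM) of the 1025 features past 2-fold on that side. The number past 2-fold thus moved with the scaling, as it did for all features. The median log2 ratio of the 67 loci was -0.70, against -0.15 over all features. Summed over every member, the photosynthesis lists had 4578 reads (2500 RPM) under salt and 25215 reads (4020 RPM) in control, a ratio of 0.622 (0.602 to 0.642). Each of these lists kept a median below 0 under every scaling, read type and floor tried.

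Chlorophyll-binding antenna proteins pass light energy to the reaction centres. All 13 light-harvesting loci were lower, where 56.4% of all features lay below 0. Their sum was 807 RPM under salt against 1198 RPM in control. LHCB1.1 (LOC_Os01g41710), an antenna protein of photosystem II, had 255 reads (139 RPM) under salt against 1260 reads (201 RPM) in control, a ratio of 0.693 (0.604 to 0.794). LHCB1.2 (LOC_Os09g17740) had 127 against 783 reads and a ratio of 0.556. LHCA4 (LOC_Os08g33820), of the photosystem I antenna, had 183 against 926 reads and a ratio of 0.677. LHCA2 was the member nearest to equality, at 0.856 (0.679 to 1.07). LHCA5 was the only one of the 13 past 2-fold (7.69%), against 19.1% of all features on the lower side. LHCA5 had 4 against 35 reads and an interval from 0.101 to 1.095.

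All 18 photosystem and electron transport loci at the floor also lay below 0, beside 56.4% of all features. Of the 18, 4 (22.2%) were 2-fold lower, near the 19.1% of all features. The summed ratio of the list was 0.647 (0.604 to 0.693). PSBO (LOC_Os01g31690), which stabilises the oxygen-evolving manganese cluster, had 174 reads (95.01 RPM) under salt against 905 reads (144 RPM) in control. PSAD (LOC_Os08g44680), the ferredoxin-docking subunit of photosystem I, had 137 against 846 reads and a ratio of 0.555 (0.460 to 0.665). PSAK (LOC_Os07g05480) had 37 against 263 reads, and its ratio of 0.482 (0.332 to 0.682) was past 2-fold. Ferredoxin 1 (LOC_Os08g01380), the soluble electron carrier, had 19 against 132 reads and a ratio of 0.493. PSAH had 11 against 77 reads and a ratio of 0.489. These 3 loci were within 2-fold with median-of-ratios factors, at log2 ratios of -0.90, -0.86 and -0.87. That left 1 of the 18 lower, where 155 of all 1025 features were. PSBQ (LOC_Os07g36080) had the lowest ratio of this list, 0.401, but only 1 of its reads in either library was unique. Plastocyanin, which carries electrons to photosystem I, was nearest to equality among these carriers, at 0.929 (0.703 to 1.22), and lay above it with both factors computed over features at the floor.

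Carbon fixation genes followed the same direction. Rubisco activase (LOC_Os11g47970), which removes inhibitory sugar phosphates from Rubisco, had 120 reads (65.5 RPM) under salt against 751 reads (120 RPM) in control, a ratio of 0.547 (0.448 to 0.664). The small subunit genes RBCS2 and RBCS3 had ratios of 0.634 and 0.585. Phosphoribulokinase (PRK, LOC_Os02g47020), which remakes the CO2 acceptor, had 50 against 356 reads and a ratio of 0.481 (0.350 to 0.648), and was within 2-fold with median-of-ratios factors, at a log2 ratio of -0.90. The plastid aldolase (LOC_Os11g07020) had 181 against 1011 reads and a ratio of 0.613. Sedoheptulose bisphosphatase was level, with 33.3 RPM under salt and 33.5 RPM in control, and lay above equality with both factors from features at the floor. All 11 Calvin cycle loci at the floor lay below 0, beside 56.4% of all features. Of the 11, 3 (27.3%) were 2-fold lower, against 19.1% of all features. Their summed ratio was 0.622 (0.572 to 0.675).

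Of the photosynthetic lists, the C4 enzyme families had the most members past 2-fold, 7 of the 14 at the floor (50%), all lower. Of all features, 19.1% were 2-fold lower. The summed ratio of the families was 0.553 (0.516 to 0.592). These families also have members outside the C4 cycle, and the rice loci do not tell which copy of finger millet was read. Pyruvate orthophosphate dikinase (PPDKB, LOC_Os05g33570), which regenerates phosphoenolpyruvate, had 323 reads (176 RPM) under salt against 2350 reads (375 RPM) in control, 2.12-fold lower (1.89 to 2.39), and was within 2-fold with median-of-ratios factors, at a log2 ratio of -0.94. The 4 PEP carboxylase loci at the floor had ratios between 0.560 and 0.784, with an interval below equality in each. Per length, PPDKB had 9.11 RPKM under salt and 19.4 RPKM in control.

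Several loci of the decarboxylase and aminotransferase families were further apart, 3 of them NADP-malic enzymes rather than the NAD-malic enzyme. Aspartate aminotransferase (LOC_Os01g55540) had 6 reads (3.28 RPM) under salt against 121 reads (19.3 RPM) in control, 5.89-fold lower (2.63 to 16.4), and was the 1 listed locus with an interval wholly beyond 2-fold on the lower side. Alanine aminotransferase (LOC_Os10g25130) had 29 against 248 reads and a ratio of 0.401 (0.263 to 0.590). NAD-malic enzyme (LOC_Os10g35960), the decarboxylase of the C4 subtype that finger millet belongs to, had 10 against 106 reads and a ratio of 0.323 (0.151 to 0.618). The NADP-malic enzyme loci LOC_Os01g09320, LOC_Os05g09440 and LOC_Os01g52500 had 35 against 333, 3 against 55 and 3 against 47 reads, all past 2-fold. PEP carboxykinase (LOC_Os03g15050) was level at 10 against 33 reads, a ratio of 1.04 (0.456 to 2.16). Carbonic anhydrase, which supplies bicarbonate to PEP carboxylase, had a ratio of 0.588 (0.408 to 0.829).

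Chlorophyll synthesis was not uniform. CHLH (LOC_Os03g20700), the large subunit of the magnesium chelatase, had 97 reads (53.0 RPM) under salt against 800 reads (128 RPM) in control, a ratio of 0.415 (0.333 to 0.513). HEMA1, glutamyl-tRNA reductase at the start of the pathway, had 18 against 131 reads and a ratio of 0.471, and was within 2-fold with median-of-ratios factors. The other chelatase subunits CHLI and CHLD, the cyclase CRD1 and the protochlorophyllide reductases PORA and PORB had intervals that included equality, with ratios from 0.714 to 1.05. In photorespiration, which recycles the product of Rubisco's oxygenase reaction, 5 of 8 loci at the floor lay below 0, a share of 62.5% beside 56.4% of all features. Serine glyoxylate aminotransferase (SGAT, LOC_Os08g39300), with 8 against 79 reads and a ratio of 0.347 (0.145 to 0.717), was the only one of the 8 past 2-fold. That is 12.5%, against 19.1% of all features 2-fold lower. Hydroxypyruvate reductase HPR1 had 16 against 38 reads and a ratio of 1.44 (0.751 to 2.65).

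**Figure D3:**
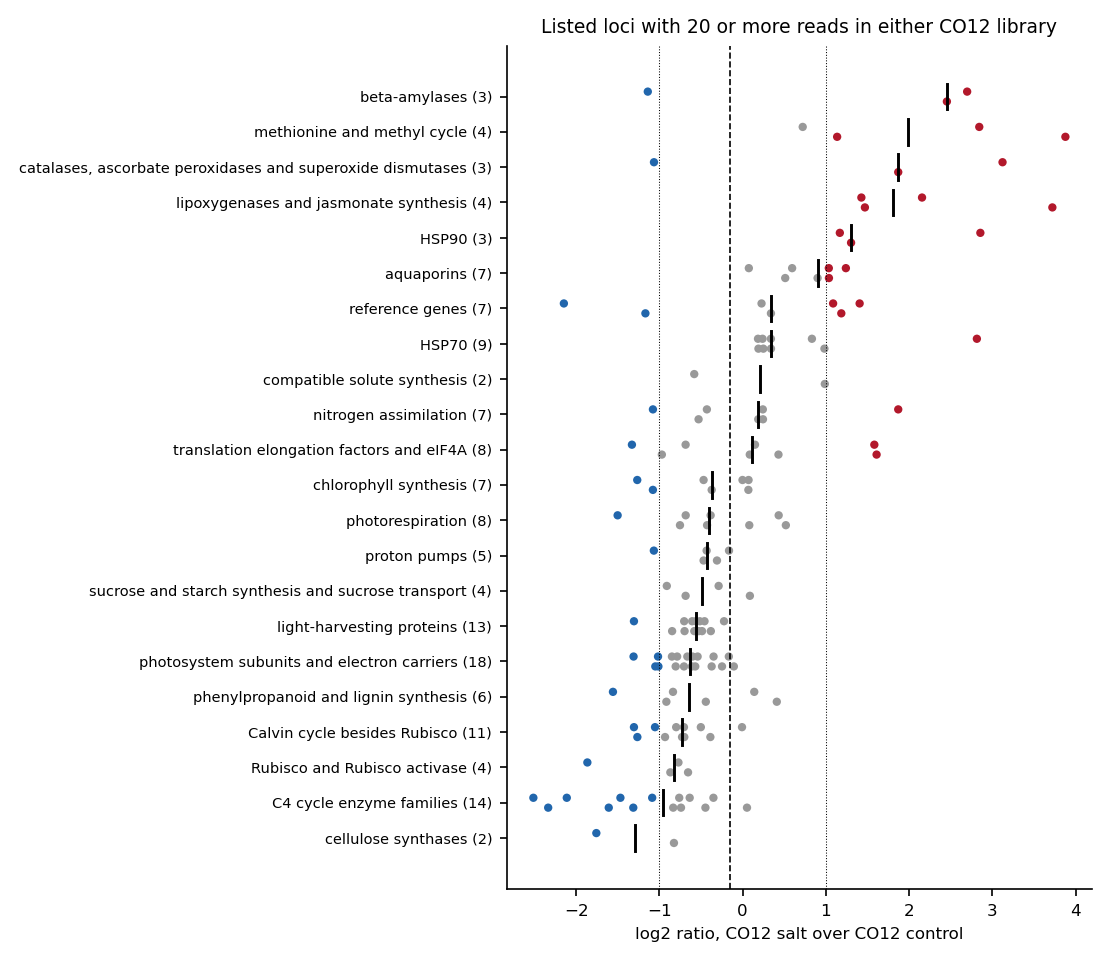
Each point is a listed locus with at least 20 reads in either CO12 library, placed by its log2 ratio of salt over control, with list sizes in brackets. Short bars are list medians, the dashed line is the median of all features (-0.15) and dotted lines mark 2-fold. The medians of the photosynthetic lists lie left of 0, as do 64 of the 67 points outside photorespiration, and the lipoxygenase, HSP90 and methyl cycle members at the floor lie right of 0.

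The genes of the methionine and methyl cycle were higher under salt. This cycle makes S-adenosylmethionine, the methyl donor for lignin, phospholipid and glycine betaine synthesis, and recycles what is left after transfer. All 4 loci at the floor were above 0 with intervals excluding equality, against 19.1% of all features on the higher side. Of them 3 (75%) were past 2-fold, against 10.8% of all features. S-adenosylhomocysteine hydrolase and methionine synthase reached the floor in the salt library alone. With library totals, that fixed their place past 2-fold and an interval above equality. The list summed to 84.1 RPM under salt against 23.9 RPM in control, a ratio of 3.52 (2.79 to 4.43). S-adenosylhomocysteine hydrolase (SAHH, LOC_Os11g26850) had 46 reads (25.1 RPM) under salt against 10 reads (1.59 RPM) in control, a ratio of 15.8 (7.84 to 35.0). Methionine synthase (LOC_Os12g42884) had 37 reads (20.2 RPM) against 17 reads (2.71 RPM), a ratio of 7.45 (4.09 to 14.1). The S-adenosylmethionine synthetases SAMS2 (LOC_Os01g22010) and SAMS1 (LOC_Os05g04510) had ratios of 2.22 (1.27 to 3.81) and 1.66 (1.03 to 2.60), and with TMM factors over all features SAMS2 was within 2-fold and SAMS1 below 0.

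Phosphoethanolamine methyltransferase uses that methyl donor to make phosphocholine, a source of choline for glycine betaine. Both of its loci were under the floor. LOC_Os05g47540 had 17 reads under salt and 2 in control, a ratio of 29.1 (6.91 to 260). LOC_Os01g50030 had 12 reads under salt and 0 in control, at least 13.7-fold higher against a floor of 3 counts in the control library, with the lower end of its interval at 9.52. Only 1 of the 29 salt reads was unique, so the 2 loci cannot be read apart. BADH2 (LOC_Os08g32870), a betaine aldehyde dehydrogenase, had 12 reads under salt and 6 in control, a ratio of 6.85 (2.38 to 22.2). The choice to name these 3 loci was made with their values known. Galactinol synthase (GolS1, LOC_Os03g20120), the first step to raffinose sugars, had 50 against 86 reads and a ratio of 1.99 (1.38 to 2.85). The inositol phosphate synthase RINO1 had 13 against 67 reads and a ratio of 0.665 (0.337 to 1.22). Over all 13 loci the compatible solute list summed to a ratio of 2.14 (1.68 to 2.71), and to 1.57 with unique reads.

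Beta-amylases release maltose from starch. LOC_Os03g04770 had 41 reads (22.4 RPM) under salt against 21 reads (3.35 RPM) in control, a ratio of 6.69 (3.86 to 11.9). LOC_Os10g32810 had 33 reads (18.0 RPM) against 20 reads (3.19 RPM), a ratio of 5.65 (3.15 to 10.4). LOC_Os10g41550, another beta-amylase locus, lay on the other side, with 13 reads (7.10 RPM) under salt against 99 reads (15.8 RPM) in control, 2.22-fold lower (1.24 to 4.34), and just within 2-fold with median-of-ratios factors, at a log2 ratio of -0.99. The list thus held both directions among its 3 members at the floor, with 66.7% at least 2-fold higher and 33.3% lower. None of the 4 sucrose and starch synthesis loci at the floor was past 2-fold. Of all features, 10.8% were 2-fold higher and 19.1% lower, so most were not past 2-fold either.

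Catalases break down hydrogen peroxide. CATA (LOC_Os02g02400) had 78 reads (42.6 RPM) under salt against 30 reads (4.78 RPM) in control, a ratio of 8.91 (5.78 to 14.1). CATC (LOC_Os03g03910), the form known from rice leaves, had 23 against 21 reads and a ratio of 3.75 (1.99 to 7.13), and was just within 2-fold with TMM factors over all features, at a log2 ratio of 0.99. The chloroplast ascorbate peroxidase APX8 had 7 against 51 reads and a ratio of 0.470 (0.180 to 1.04), an interval that included equality. The other 11 loci of the list, superoxide dismutases among them, were under the floor.

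Lipoxygenases oxidise polyunsaturated fatty acids, some of them toward jasmonate. All 4 lipoxygenase loci at the floor were past 2-fold on the higher side, against 10.8% of all features. Their intervals excluded equality, against 19.1% of all features on that side. LOC_Os12g37260 had 58 reads (31.7 RPM) under salt against 44 reads (7.01 RPM) in control, a ratio of 4.52 (3.00 to 6.84). Its log2 ratio of 2.16 was 1.43 with unique reads, of which it had 33 against 40. LOC_Os12g37350 had 22 against 5 reads and a ratio of 15.1 (5.57 to 50.9), but 6 and 4 of them were unique. It reached the floor in the salt library alone, which fixed its place past 2-fold and an interval above equality with library totals. LOC_Os02g10120, in which every read was unique, had 40 against 49 reads and a ratio of 2.80 (1.79 to 4.33). LOC_Os08g39840 had 20 against 25 reads and a ratio of 2.74 (1.44 to 5.14). With unique reads, 2 of the 4 reached the floor, both past 2-fold, and the list median of 1.81 became 1.42. With TMM factors over all features 2 of the 4 were past 2-fold. The dedicated jasmonate synthesis loci on the list were all under the floor.

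Chitinases cleave fungal cell walls and are produced in many stresses. The chitinase locus LOC_Os10g39680 had the highest ratio of all features at the floor, 25.1 (7.55 to 131), on 22 reads under salt against 3 in control, of which 15 and 1 were unique. It reached the floor in the salt library alone, which fixed its place past 2-fold with library totals. A second chitinase locus, LOC_Os05g33130, under the floor by 1 read and chosen with its values known, had 19 against 3 reads and a ratio of 21.7 (6.39 to 114). The pathogenesis-related loci PR1a, PBZ1 and PR10 had 0 reads in both libraries and PR1b had 1 read under salt.

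Cytosolic HSP90 and the endoplasmic reticulum chaperones GRP94 and BiP1 were past 2-fold on the higher side in the CO12 salt library. HSP90 proteins hold client proteins such as kinases and receptors, and HSP70 proteins fold nascent and stress-damaged ones. All 3 HSP90 loci at the floor were past 2-fold, against 10.8% of all features on the higher side. With TMM factors over all features GRP94 alone was. GRP94 and BiP1 reached the floor in the salt library alone, which fixed their place past 2-fold and an interval above equality with library totals. LOC_Os08g39140 had 81 reads (44.2 RPM) under salt against 112 reads (17.9 RPM) in control, a ratio of 2.48 (1.84 to 3.33). LOC_Os09g30412 had 58 against 88 reads and a ratio of 2.26 (1.59 to 3.18). GRP94 (LOC_Os06g50300), the HSP90 of the endoplasmic reticulum, had 31 reads (16.93 RPM) against 14 reads (2.23 RPM), a ratio of 7.58 (3.92 to 15.4). BiP1 (LOC_Os02g02410), the HSP70 of the same compartment, had 26 reads (14.2 RPM) against 12 reads (1.91 RPM), a ratio of 7.42 (3.62 to 16.1).

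All 9 HSP70 loci at the floor lay above 0, where 56.4% of all features lay below it. BiP1 was the only one past 2-fold (11.1%, near the 10.8% of all features higher). With BiP1, 3 intervals (33.3%) excluded equality, against 19.1% of all features on the higher side. The other two were LOC_Os01g62290, with 66 against 114 reads and a ratio of 1.98 (1.44 to 2.71), and LOC_Os05g38530, with 87 against 167 reads and a ratio of 1.78 (1.36 to 2.33). The median of the list was 0.34 on the log2 scale, and -0.56 with TMM factors over all features. The HSP90 median of 1.303 stayed above 0 there, at 0.41. Among small heat shock proteins and Clp ATPases only the plastid CLPB locus reached the floor, with 10 against 26 reads and a ratio of 1.32 (0.567 to 2.82).

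**Figure D4:**
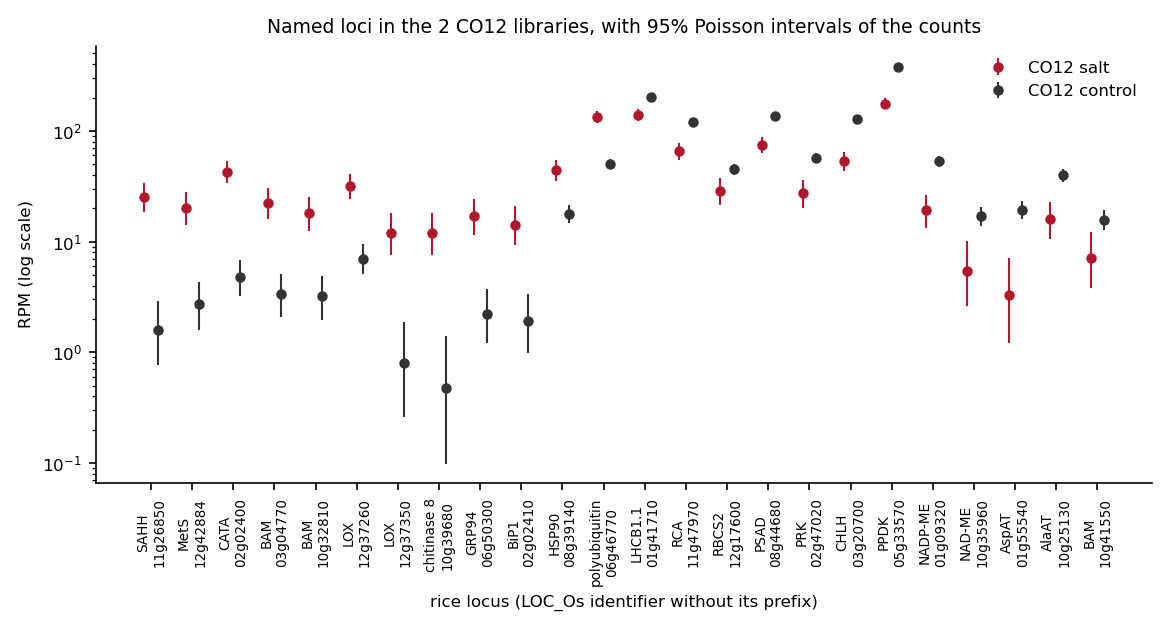
Points are the RPM (log axis) of selected named loci in the CO12 salt library (red) and the CO12 control library (dark grey), with 95% Poisson intervals of the counts. From SAHH to polyubiquitin the salt value is the higher one, and from LHCB1.1 to the last beta-amylase (LOC_Os10g41550) the salt value is the lower one.

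Water channels, the aquaporins, were above 0 in all 7 loci at the floor, where 56.4% of all features lay below it. PIP1-3 (LOC_Os02g57720), with 21 against 30 reads and a ratio of 2.40 (1.31 to 4.33), and PIP2-1 (LOC_Os07g26690), with 23 against 38 reads and a ratio of 2.07 (1.18 to 3.57), were past 2-fold, as was the vacuolar TIP1-1 at 2.09 (0.992 to 4.23). PIP1-2 had the most reads, 42 against 95, and a ratio of 1.51 (1.03 to 2.20). The list median was 0.90 on the log2 scale, 0.53 with unique reads and 0.018 with TMM factors over all features. The 3 loci past 2-fold were 42.9% of those at the floor, against 10.8% of all features. These 3 became 1 with unique reads, where PIP2-1 was at 0.87, and 0 with TMM factors over all features.

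The transporters that classically handle sodium were too low to read. None of 13 loci of the sodium and potassium list reached the floor, and they summed to 7 reads under salt and 31 in control, a ratio of 0.773 (0.287 to 1.79). HKT1.5, which retrieves sodium from the xylem, had 0 reads in both libraries, the sodium/proton antiporter SOS1 had 1 read under salt and 2 in control, and the vacuolar antiporter NHX1 had 2 and 5. A difference in them was not detectable at this depth. Proton pumps supply the gradient these antiporters use. All 5 pump loci at the floor lay below 0, beside 56.4% of all features. The vacuolar pyrophosphatase OVP4 (LOC_Os02g09150), with 24 against 173 reads and a ratio of 0.475 (0.296 to 0.731), was the only one past 2-fold. That is 20% of the 5, near the 19.1% of all features lower. With median-of-ratios factors the log2 ratio of OVP4 was -0.92 and none of the 5 was past 2-fold. With TMM factors over all features all 5 were past 2-fold, where 527 of all 1025 features were lower.

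Abscisic acid and dehydration genes were also under the floor locus by locus. The 27 abscisic acid loci summed to 46 reads (25.1 RPM) under salt and 82 reads (13.1 RPM) in control, a ratio of 1.92 (1.31 to 2.79). The SnRK2 kinase SAPK5, which had 6 and 8 reads, and SAPK8, with 3 and 10, were among those with the most reads. The dehydrin list summed to 10 and 12 reads, a ratio of 2.85 (1.11 to 7.21), with 5 and 6 of them from RAB16A and 5 and 5 from DHN1. LEA3 and SalT were at 0 in both. The 14 stress transcription factors summed to 12 and 28 reads, a ratio of 1.47 (0.680 to 2.98).

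Nitrogen assimilation genes lay on both sides of 0, 3 below (42.9%, beside 56.4% of all features) and 4 above. A nitrate reductase locus, LOC_Os08g36500, had 23 against 21 reads and a ratio of 3.75 (1.99 to 7.13), of which 5 and 3 reads were unique, and was just within 2-fold with TMM factors over all features. The locus NIA1 (LOC_Os08g36480), with 54 against 156 reads, had a ratio of 1.19 (0.853 to 1.63). Ferredoxin-dependent glutamate synthase had 37 against 107 reads and a ratio of 1.18 (0.792 to 1.74). The list median was 0.19, but -0.16 with unique reads and -0.69 with TMM factors over all features.

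Cellulose synthases build the cell wall. Both of their loci at the floor lay below 0, beside 56.4% of all features, with intervals that included equality. CESA8 (LOC_Os07g10770) had 2 against 25 reads, a ratio of 0.274 (0.031 to 1.099). The 9 cellulose synthase loci summed to 26 and 161 reads, a ratio of 0.553 (0.351 to 0.841). In phenylpropanoid synthesis, which leads to lignin, 4 of 6 loci at the floor (66.7%) lay below 0, near the 56.4% of all features. Of the 6, 1 (16.7%) was past 2-fold on the lower side, near the 19.1% of all features. The PAL locus LOC_Os05g35290 had 6 against 62 reads and a ratio of 0.331 (0.117 to 0.763), while cinnamate hydroxylase (LOC_Os05g25640) had 19 against 59 reads and a ratio of 1.103 (0.621 to 1.88).

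Genes often used as internal references were not level. Of the loci in this paragraph past 2-fold, both polyubiquitin loci, LOC_Os03g01530 and both EF1A loci were within it with TMM factors over all features. Actin (LOC_Os11g06390) had 13 reads (7.10 RPM) under salt against 101 reads (16.1 RPM) in control, a ratio of 0.441 (0.227 to 0.788). Polyubiquitin (LOC_Os06g46770), which supplies the tag for protein degradation, had 244 reads (133 RPM) against 315 reads (50.2 RPM), a ratio of 2.65 (2.24 to 3.15), and polyubiquitin LOC_Os02g06640 had a ratio of 2.28 (1.67 to 3.11). The beta-tubulin loci split, with 2 against 33 reads for LOC_Os03g45920 and 17 against 27 reads for LOC_Os03g01530. Cytosolic GAPC (LOC_Os08g03290), a glycolytic enzyme, had a ratio of 1.27 (0.887 to 1.78). The elongation factor EF1A loci LOC_Os03g08020 and LOC_Os03g08050 had ratios of 3.08 (2.01 to 4.71) and 3.01 (2.20 to 4.11), with 45 against 50 and 80 against 91 reads. Few of these reads were unique, 8 against 7 and 24 against 20. The plastid elongation factor EF-Tu (LOC_Os02g38210), almost all of whose reads were unique, had 44 against 296 reads and a ratio of 0.509 (0.362 to 0.701).

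Of the 1025 features at the floor, 874 were not listed genes. Of the 12 highest with an interval wholly beyond 2-fold, 4 carry no name here. These 4 reached the floor in the salt library alone, which fixed their place past 2-fold with library totals. LOC_Os02g41580 had 37 against 15 reads and a ratio of 8.45 (4.53 to 16.6), all of them unique. LOC_Os02g09060 had 25 against 11 reads and a ratio of 7.78 (3.70 to 17.5), also all unique. LOC_Os04g16886 and LOC_Os04g16712, each 471 bp long, had 26 against 7 and 30 against 9 reads, none of them unique. Of the 12 lowest, 11 carry no name here. LOC_Os01g10950 had 0 reads under salt and 37 in control, at least 3.60-fold lower against 3 counts in the salt library. LOC_Os11g02610 had 0 and 34 reads (at least 3.31-fold lower), and LOC_Os06g51230 had 0 and 33 (at least 3.21-fold lower). LOC_Os01g40610 had the most reads of this group, 6 under salt and 141 in control, 6.86-fold lower.

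Ratios varied with how many reads of a feature were unique. Among 725 features with at least 90% unique reads, 51 were higher and 152 lower, with a median of -0.25. Among 122 with under 10% unique reads, 28 were higher and 19 lower, with a median of 0.08. The part of shared reads in this pattern was not tested.

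Trichy 1, which shares no library with CO12, is given side by side. The combined photosynthesis lists had a ratio of 0.562 (0.546 to 0.579) in Trichy 1 against 0.622 in CO12. SAHH had 20.8 RPM under salt against 5.97 RPM in control in Trichy 1, CATA had 26.2 against 8.66 RPM, and the beta-amylase LOC_Os03g04770 had 36.2 against 5.97 RPM, so these were on the same side in both genotypes. The phosphoethanolamine methyltransferases had 57 reads against 2 in Trichy 1. With library totals, the HSP90 and HSP70 lists lay on opposite sides. HSP90 loci summed to a ratio of 2.71 (2.23 to 3.30) in CO12 and 0.766 (0.633 to 0.924) in Trichy 1. HSP70 loci summed to 1.51 (1.33 to 1.70) in CO12 and 0.839 (0.744 to 0.946) in Trichy 1. With TMM factors over all features, the CO12 median log2 ratio was -0.56 for HSP70 and 0.41 for HSP90. The side of HSP70 in CO12 thus depends on the scaling. With 1 library per group, a difference between the genotypes was not tested.

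**Figure D5:**
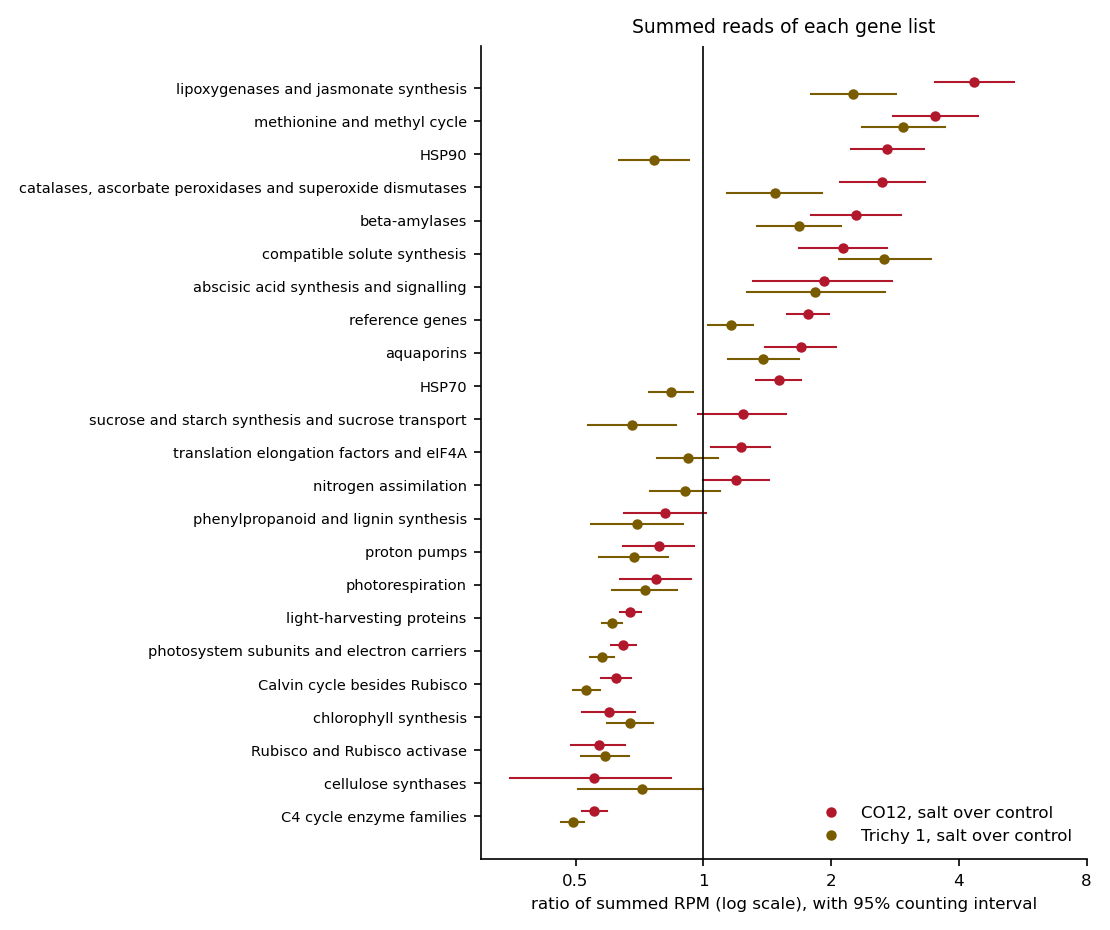
Points are the ratio of summed RPM, salt over control (log axis), of each gene list with at least 100 reads in both CO12 libraries together, in CO12 (red) and Trichy 1 (brown), with 95% counting intervals. The photosynthetic lists lie below 1 in both genotypes, while HSP90 lies at 2.71 in CO12 and 0.766 in Trichy 1. Lists under 100 reads, the chitinase list among them, are not drawn.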

How the data were processed

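Ribosomal RNA was depleted, the rest fragmented with RNase III, and barcoded libraries sequenced on an Ion Proton instrument, per the labels' protocols. The authors deposited whole-number counts of total and of unique gene reads per feature, and an RPKM that equalled the RPM used here per kilobase of the listed gene length, within a relative difference of 5.7e-08. How reads were aligned and counted, with which strand setting and on which build, is not given in the sources used here.

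Total gene reads were scaled to a library total of 1e+06. Log2 ratios of salt over control took a prior of 0.5 count, scaled to depth, over features reaching 20 reads in 1 or both libraries, and 2-fold was the threshold. The intervals of ratios are 95% conditional binomial ones (exact, Clopper-Pearson), those of summed reads exact Poisson ones, and a count of 0 was given a floor of 3 counts, all for counting error of reads without molecular identifiers. The calculation was tested on simulated data, in which a change in a very abundant feature shifted all other ratios.

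The comparison, the loci named and the gene lists were chosen with earlier results of these data known. Within each list, members 2-fold apart with an interval excluding equality and the most abundant member per length were eligible for naming, with the 12 highest and 12 lowest features and the 5 most abundant of each library. Other list members in the text were named with their values known. Of 379 listed loci, 3 were not analysed here. Sub-groups within lists and TMM over features at the floor were chosen after seeing the data. Alternatives were unique reads, TMM factors (edgeR 4.0.16), median-of-ratios factors, a total without the most abundant features, other floors and a prior of 2.5. Python 3.11.15, scipy 1.17.1 and R 4.3.3 were used.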

Additional observations from a re-analysis of the deposited data

Results flagged for a closer look

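Scaled to library totals, some values of CO12 lay on the other side of 0 from Trichy 1. Each rests on 1 library per group, and none of these differences was tested. The HSP90 list had a summed RPM ratio of 2.71 in CO12 against 0.766 in Trichy 1 (log2 -0.38). The locus LOC_Os08g39140 had a log2 ratio of 1.3 in CO12 and -0.43 in Trichy 1, and LOC_Os09g30412 had 1.17 and -0.52. The HSP70 list had a summed ratio of 1.51 in CO12 and a log2 value of -0.25 in Trichy 1. Its CO12 median was below 0 with TMM factors over all features. LOC_Os05g22940, with 1 read under salt and 41 in control in CO12, had a log2 ratio of -3.31 there and 1.42 in Trichy 1, where it had 18 and 9 reads. LOC_Os01g57968, one of the most abundant features, had -0.09 in CO12 and 0.05 in Trichy 1.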

How the results depend on the processing

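Against 111 features higher and 196 lower with library totals, unique reads gave 63 higher, TMM factors over all features 31 higher and 527 lower, no floor 6769 higher and 13055 lower, a floor of 100 reads 23 higher and 47 lower, and a floor in RPM 62 lower. The median of -0.15 became -0.27 with unique reads, -1.04 with TMM factors, -0.0068 with median-of-ratios factors, -1.20 with no floor, 0.039 with the RPM floor and -0.020 with TMM factors over features at the floor, an alternative added after seeing the data. For translation elongation factors and eIF4A, the summed log2 ratio turned to -0.26 with unique reads, and the cause was not tested. TMM factors over all features turned the medians of the HSP70, nitrogen assimilation, compatible solute, translation and reference gene lists below 0. Of the log2 ratios of named loci under alternatives, 444 moved by less than their counting error and 74 by more. The depth of the salt library, 75409 reads outside its 20 most abundant features, limits what can be read, and loci of a few reads have wide intervals. No paired analysis was possible because each group has 1 library, and leaving out a replicate could not be done for the same reason.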
